A study of Mus musculus with 6 samples.

Results

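The neutrophil granule and S100 genes were a set of 7 genes, S100a8, S100a9, Ngp, Camp, Lcn2, Retnlg and Ltf, among 32287 features in the gene matrix of a lymph node CITE-seq experiment. They were chosen on measured values, as genes that lead a small cluster of these same cells, so their high level in that cluster is given here as a description and without a test. CITE-seq reads messenger RNA and antibody tags from the same single cells. CD11b+TOM+ cells were sorted from inguinal lymph nodes of CD169Tom mice (genotype Cd169Cre/+.Tdtomato fl/fl), in which Cre is driven from the CD169 (Siglec1) locus and marks CD169-lineage cells with the red fluorescent protein tdTomato, and both groups carried these alleles. The groups were 2 unimmunized mice and 2 mice immunized with hen egg lysozyme, with lymph nodes taken at day 9. The paper's general methods describe lysozyme joined to an ovalbumin peptide, in Sigma Adjuvant System, for mice given antigen-specific B and T cells. For the sequenced mice the methods state neither the adjuvant nor a cell transfer. The methods say that males and females were used and give age only as a lower limit of some weeks, and the labels give neither for a single mouse. Each mouse was 1 replicate and was marked by 1 hashtag antibody, and the pooled cells were split over 2 captures of the Chromium 10X 3′ system.

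Neutrophils are short-lived phagocytes of the blood that build their granules while they mature in the bone marrow. S100A8 and S100A9 pair to form calprotectin, a calcium- and zinc-binding complex that fills the neutrophil cytosol and is also made by monocytes. The messages for the specific granule proteins Ngp, Camp, Lcn2 and Ltf are made at an intermediate stage of maturation and decline as the cell matures, whereas the primary granule enzymes Elane, Mpo and Ctsg are made earlier still. Retnlg, a resistin-like secreted protein, is a marker of mature mouse neutrophils. In lymph nodes neutrophils are scarce at rest and can enter after infection or immunization.

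All 7 genes matched the annotation of the mm10 build by Ensembl identifier. S100a8 (ENSMUSG00000056054, chr3:90668978-90670035, plus strand) and S100a9 (ENSMUSG00000056071, chr3:90692632-90695721, minus strand) are neighbours on chromosome 3. Ngp (ENSMUSG00000032484, chr9:110419747-110423012, plus strand), Camp (ENSMUSG00000038357, chr9:109847379-109849617, minus strand) and Ltf (ENSMUSG00000032496, chr9:111019271-111042767, plus strand) lie near each other on chromosome 9. Lcn2 (ENSMUSG00000026822, chr2:32384633-32388252, minus strand) is on chromosome 2 and Retnlg (ENSMUSG00000022651, chr16:48872621-48874496, plus strand) on chromosome 16.

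Because the 7 genes were read in the same few cells, 4 of their promoters are shown, those of the S100 pair and of 2 specific granule genes. Each runs 5′ to 3′ on the gene's strand from 250 bases before to 50 bases after the start of transcription in RefSeq on GRCm38.p6, and capitals mark matches of 2 motifs on either strand, TTGCNNAA for C/EBP factors and GAGGAA, the core bound by PU.1, both regulators of myeloid genes. S100a8 is at chr3:90668821-90669120 on the plus strand, S100a9 at chr3:90695672-90695971 on the minus strand, Ngp at chr9:110419558-110419857 on the plus strand and Ltf at chr9:111019042-111019341 on the plus strand.
S100a8: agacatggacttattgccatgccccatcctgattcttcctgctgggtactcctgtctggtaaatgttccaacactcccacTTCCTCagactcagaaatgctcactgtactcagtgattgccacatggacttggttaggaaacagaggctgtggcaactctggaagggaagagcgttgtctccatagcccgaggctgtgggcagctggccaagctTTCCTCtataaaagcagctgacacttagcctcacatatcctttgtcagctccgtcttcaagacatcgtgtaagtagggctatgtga
S100a9: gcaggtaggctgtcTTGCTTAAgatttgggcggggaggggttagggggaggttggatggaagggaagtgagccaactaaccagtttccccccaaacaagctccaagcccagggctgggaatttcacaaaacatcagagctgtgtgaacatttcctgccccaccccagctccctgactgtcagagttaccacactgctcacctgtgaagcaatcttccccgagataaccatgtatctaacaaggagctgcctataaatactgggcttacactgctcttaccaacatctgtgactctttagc
Ngp: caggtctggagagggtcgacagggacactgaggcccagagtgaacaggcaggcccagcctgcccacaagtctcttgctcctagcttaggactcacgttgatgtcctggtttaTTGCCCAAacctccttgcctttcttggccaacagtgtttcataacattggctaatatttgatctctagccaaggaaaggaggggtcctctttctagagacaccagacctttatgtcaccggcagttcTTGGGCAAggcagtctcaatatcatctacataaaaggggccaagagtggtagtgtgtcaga
Ltf: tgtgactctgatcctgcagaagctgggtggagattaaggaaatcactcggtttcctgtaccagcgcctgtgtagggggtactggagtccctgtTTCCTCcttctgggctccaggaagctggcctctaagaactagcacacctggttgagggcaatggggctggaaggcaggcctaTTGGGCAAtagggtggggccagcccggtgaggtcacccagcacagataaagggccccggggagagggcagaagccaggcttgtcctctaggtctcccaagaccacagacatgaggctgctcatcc
The C/EBP letters were found in 5 of the 7 promoters (S100a9, Ngp, Lcn2, Retnlg and Ltf) and in 10.8% of all 32851 promoters of the same length. Ngp held 2 such matches, starting at -138 and -11, and Ltf held 1 starting at -75. The PU.1 core was found in 3 of the 7 (S100a8, Lcn2 and Ltf), against 28.3% of all promoters, and S100a8 held it at -170 and -36. Camp held neither. A match is a run of letters and does not show that a factor was bound.

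Of 18662 barcodes, 12139 cells were kept after each was assigned to a mouse: 2828 and 537 cells of unimmunized mice 1 and 2 and 4052 and 4722 cells of immunized mice 1 and 2. Depth differed between the mice, with a median of 5877 and 6280 UMIs (unique molecular identifiers, 1 per captured molecule) per cell in unimmunized mice against 9674 and 12727.5 in immunized mice, and totals of 3817845 to 61983132 UMIs per mouse. The 621 barcode sequences that occurred in both captures were left out, since the tag tables do not say which capture a barcode came from. Doublets of 2 mice were removed through the hashtags, and doublets within a mouse were not. Not all kept cells were myeloid by their markers: 1875 were T, natural killer or B cell-like. Of these, 12.7% had a UMI of Itgam, the gene of the sorted protein CD11b. These 1875 cells serve below as cells that should lack these 7 genes.

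The 7 genes were carried by very few cells. Together they had 47185 UMIs in the kept cells, and 10734 cells (88.4%) had none of them while 1082 had exactly 1. The 11 cells with over 1000 UMIs of the set held 39393 of the 47185. A single cell held 18.4%, the top 5 cells 56.8%, the top 10 cells 81.1% and the top 20 cells 90.2%. Per gene, 5 cells were enough to hold 50% of the UMIs of S100a8 and of S100a9, and 2 cells were enough for Ngp, Camp and Ltf.

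**Figure D1:**
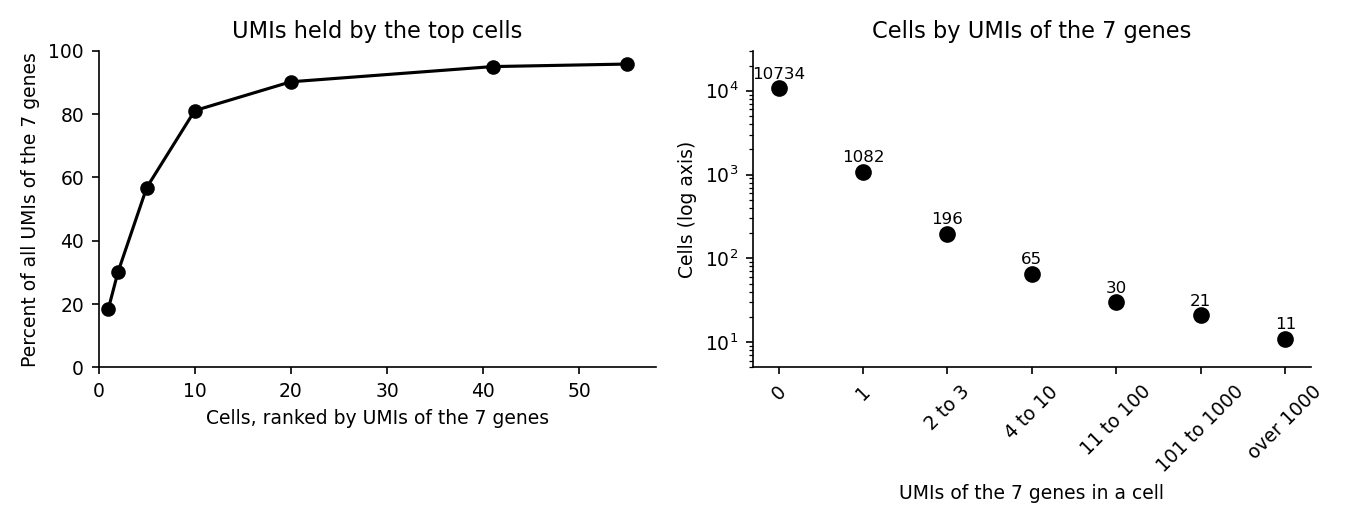
The left panel plots the percent of all UMIs of the 7 genes held by the top cells against the number of cells, ranked by those UMIs, and the right panel plots the number of kept cells (log axis) in each range of UMIs of the 7 genes per cell. The curve reaches 81.1% at 10 cells, and 10734 of the 12139 cells lie in the range of 0 UMIs.

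To ask which cells these were, cells were gated on 16 other neutrophil markers that leave out the 7 genes, such as Csf3r, the receptor for G-CSF, Cxcr2, a chemokine receptor, and the collagenase Mmp8, with at least 5 of the 16 detected. The gate took 55 cells, 20 and 2 of the unimmunized mice and 24 and 9 of the immunized mice. The 40 of them that passed no other cell type's gate are called neutrophil-like (13, 2, 22 and 3 cells), and 15 passed another gate as well. The 55 cells held 95% of the UMIs of the 7 genes and the 40 neutrophil-like cells 80.0%. The mice differed in this. Neutrophil-like cells held 46.6% and 65.9% in unimmunized mice 1 and 2 and 97.3% and 65.3% in immunized mice 1 and 2. All gated cells held 95.1% and 65.9% against 97.4% and 88.7%. The limit was a soft one, with 23 cells at exactly 5 markers and 41 cells at 4.

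The 7 genes were all among the 10 genes with the highest fold in neutrophil-like cells over cells outside the gate, together with the gate markers Wfdc21, Mmp9 and Mmp8. The gate did not use the 7, but they had been chosen as leading genes of a cluster of these cells, so this rank restates the choice and does not bear on their label. Transcripts of Elane, Mpo and Ctsg had 0 UMIs in the 40 cells, and Prtn3 had 1. Itgam, which encodes the sorted protein CD11b, had a UMI in 28 of the 40 cells (70.0%) and in 48.9% of cells outside the gate. The Tomato transcript was sparse in both, with a UMI in 2 of the 40 cells (5.0%) and in 4.89% of cells outside the gate. Siglec1 had 0 UMIs in the 40 cells, which allows a level of up to 15.5 CPM (a gene's UMIs per 1000000 UMIs, from 3 counts). Outside the gate it stood at 19.9 CPM, with a UMI in 14.6% of cells, so the 0 sets these cells little apart. The gate list of monocyte-derived dendritic cells reached 3693 CPM in the 40 cells against 295.4 outside the gate. A median of 1 of its 6 markers was detected per neutrophil-like cell, and the part of this list in the results was not tested.

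S100a9 and S100a8 were the first and the second most abundant transcripts in neutrophil-like cells. Over the summed cells, S100a9 stood at 89500 (95% Poisson interval 88170 to 90840) and S100a8 at 80070 (78820 to 81340), against 4.83 and 11.5 CPM in cells outside the gate. Intervals here cover counting error alone, and with 3′ tags counted once per molecule no scaling to gene length is needed. Retnlg stood at 7422 CPM, Lcn2, which encodes the siderophore-binding lipocalin 2, at 6778, Ngp, the neutrophilic granule protein, at 5545, Camp, the precursor of the antimicrobial peptide cathelicidin, at 4132 and Ltf, the iron-binding lactotransferrin, at 1341. Their ranks by CPM among all genes were 8, 10, 15, 20 and 95. Outside the gate the same 5 genes stood between 0.154 CPM (Ngp) and 1.54 CPM (Lcn2).

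The S100 pair was spread over nearly the whole class and the granule genes were not. S100a8 had a UMI in 39 of the 40 neutrophil-like cells and S100a9 in 38. Retnlg was detected in 24, Lcn2 in 20, Ngp in 10, Ltf in 8 and Camp in 7. These cells were shallow, with a median of 2984 UMIs, and the part of depth in these shares was not tested. Thinned to 1000 UMIs per cell, the shares were 95% for S100a8, 92.5% for S100a9, 52.5% for Retnlg and 40.0% for Lcn2. They were 20% for Ngp, 15.0% for Ltf and 10.0% for Camp.

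Among the 55 gated cells, nearly all UMIs of Ngp, Camp and Ltf lay in 10 cells, all 10 with Ngp, 8 with Camp and 8 with Ltf. These 10 cells, each with 10 or more UMIs of the 3 genes together, held 1349 of the 1350 Ngp UMIs, 1319 of the 1320 Camp UMIs and 349 of the 350 Ltf UMIs of the gate. They came from unimmunized mouse 1 (3 cells), immunized mouse 1 (5) and immunized mouse 2 (2). They held 1127 to 8682 UMIs of the 7 genes each, at a median depth of 9273.5 UMIs. One cell with none of the 3 genes lay within that range, a cell of immunized mouse 2 that passed another gate as well and had 882 UMIs of S100a8 and 1128 of S100a9 among 34395 UMIs. A second group of 18 cells had no UMI of Ngp, Camp or Ltf but at least 100 of S100a8 and S100a9, at a median depth of 2734 UMIs. In 24 further cells there was again no UMI of the 3 genes and fewer than 100 of the S100 pair, and 3 cells held 1 to 9 UMIs of the 3 genes.

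The cell that held most, from immunized mouse 1, had 3380 UMIs of S100a8, 3581 of S100a9, 635 of Camp, 511 of Ngp, 427 of Lcn2, 126 of Ltf and 22 of Retnlg among 15155 UMIs, so that the 7 genes made up 57.3% of its transcripts. The next cell of the same mouse had another balance, with 2277 UMIs of S100a8 and 2502 of S100a9 but 420 of Retnlg, 199 of Lcn2, 59 of Ngp, 22 of Ltf and 14 of Camp among 11631. In unimmunized mouse 1 the richest cell, which also passed another gate, had 1511 UMIs of S100a8, 1621 of S100a9, 518 of Camp, 275 of Ngp, 122 of Lcn2, 90 of Ltf and 0 of Retnlg. Thus the Camp UMIs of the whole data set sat mainly in 2 cells, 1 of each condition, which held 46.5% and 37.9% of them. In immunized mouse 2 the richest cell had 1276 UMIs of S100a8, 1540 of S100a9, 234 of Retnlg, 90 of Lcn2 and 14 of Ngp, and none of Camp or Ltf.

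**Figure D2:**
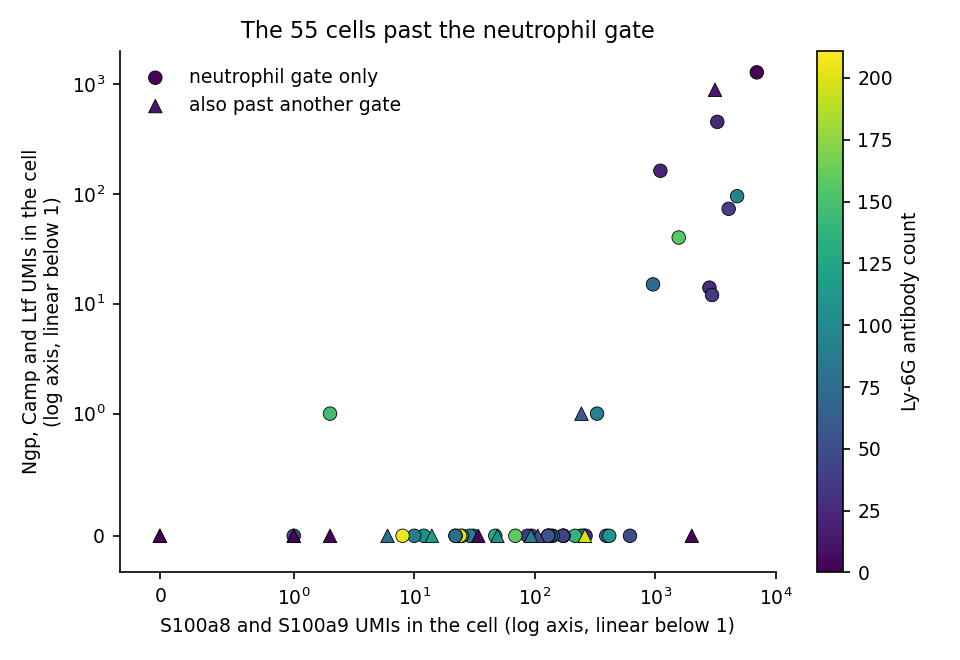
Each point is 1 of the 55 cells past the neutrophil gate, with its S100a8 and S100a9 UMIs on the x axis and its Ngp, Camp and Ltf UMIs on the y axis (both log axes, linear below 1), coloured by its Ly-6G antibody count. The 10 cells with 10 or more granule UMIs lie towards the right, and the other cells lie at or near 0 on the y axis, with 1 of them among the 10 on the x axis.

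The antibody panel gave a readout that had chosen neither the genes nor the cells. Ly-6G, the surface protein that marks mouse neutrophils, was read through an antibody whose tag is printed here because it is the only protein measure of neutrophils in the panel.
Ly-6G antibody tag: acattgacgcaacta
Its count had a median of 74.5 in neutrophil-like cells and 1 in every other class with at least 10 cells except conventional dendritic cell 1-like and medullary sinus macrophage-like cells, where it was 2. Within mice, neutrophil-like cells had median counts of 90 (range 22 to 205, 13 cells) and 100.5 (45 and 156, 2 cells) in unimmunized mice 1 and 2, and of 72.5 (2 to 211, 22 cells) and 37 (27 to 40, 3 cells) in immunized mice 1 and 2. All other cells of each mouse had a median of 1, with single cells of up to 227. On the centred log ratio scale, which sets each antibody against the others in the cell, neutrophil-like cells were higher by 2.96, 3.00, 3.01 and 2.67 in the 4 mice (mean 2.91, SD 0.162, n = 4). The difference was higher in 4 of 4 mice, with p = 0.125 in the exact two-sided sign-flip test, the smallest p that 4 mice allow. The gate used the Ly6g transcript as 1 of its 16 markers, and it had a UMI in 12 of the 40 cells.

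The cells with most granule transcripts were not those with the highest Ly-6G counts. The 10 granule-rich cells had a median Ly-6G count of 32 (2 to 156), against 71 (4 to 211) in the 18 cells with the S100 pair alone and 83 (0 to 205) in the 24 cells with little of either. The richest cell had a count of 2 and the richest cell of unimmunized mouse 1 a count of 13. Conversely, 103 cells outside the gate had a Ly-6G count of at least 20, and 82 of them had no UMI of the 7 genes. Summed over the group, these 103 cells had 657 CPM of the 7 genes, against 16.2 CPM in cells outside the gate with lower counts. Of their 379 UMIs of the 7 genes, 368 lay in the 34 cells with a count of at least 50. Unimmunized mouse 1 gave 72 of the 103 cells. Of 150 kept cells with at least 20 Ly-6G counts, 47 were in the gate.

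Assignment to a mouse was less clean for these cells. The top hashtag held a median of 91.7% of the hashtag counts in neutrophil-like cells and 94.8% in the other cells, and 8 of the 40 (20%) had at least 95%, against 47.7% of the other cells. The part of stray hashtags in the values per mouse was not tested.

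The rest of the neutrophil genes were counted from a list of 37, of which 36 were in the matrix. Of these, 27 had a higher CPM in neutrophil-like cells than in cells outside the gate, where 17.6% of the 20378 genes with a UMI did (no test). The gate had used 16 of the 36, and of the 20 it had not used 13 were higher, with a median fold of 33.7 among those 13. The 3 with the highest CPM in neutrophil-like cells were Lyz2, the lysozyme of myeloid cells, at 8155 CPM, Il1b, an inflammatory cytokine, at 3930 and Ifitm6, an interferon-induced membrane protein, at 2718. Lyz2 was higher outside the gate, at 18610 CPM, whereas Il1b stood at 357.9 and Ifitm6 at 53.8 there. Of 14 other S100 genes, 2 had a higher CPM in neutrophil-like cells, S100a6 (5999 against 1459) and S100a11 (4121 against 1020), and 8 had 0 UMIs in them. S100a4, the third by CPM, stood at 459.1 against 2151 outside the gate. That count of 2 of 14 stands near the 17.6% of all genes, so nothing about the family is read from it.

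The genes of most similar pattern, over 41 libraries of 1 mouse and class each and 9491 genes, were Mrgpra2b (Pearson r = 0.991), Chil1 (0.988), Ly6g (0.985), Steap4 (0.985), Cstdc4 (0.981), Il1f9 (0.98), Hdc (0.976), Mirt2 (0.97), Mmp9 (0.962) and Wfdc21 (0.959). Libraries of 1 mouse share their source, and 2 of the 41 were neutrophil-like, so these values rest mainly on those 2. Ly6g, Hdc, Mmp9 and Wfdc21 were gate markers. In the 2 neutrophil-like libraries Mrgpra2b had a mean of 167.4 CPM, and it did not pass 0.386 CPM in any other library.

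In several classes outside the gate S100a8 was well above S100a9. The named classes leave out 6783 kept cells (55.9%) that passed no gate and 541 that passed more than 1. Cells that passed no gate held 599 of the 1418 S100a8 UMIs and 301 of the 595 S100a9 UMIs outside the neutrophil gate. Classical monocyte-like cells, the main other myeloid class in which S100a8 is known, had 24.3 CPM of S100a8 (21.0 to 28.0; 191 UMIs in 652 cells) and 2.68 CPM of S100a9 (1.66 to 4.09). Inflammatory macrophage-like cells, gated on Nos2, Arg1, Saa3 and others, had 28.5 CPM of S100a8 (25.1 to 32.3; 243 UMIs in 560 cells) and 2.93 CPM of S100a9 (1.90 to 4.33). The T, natural killer and B cell-like cells together had 5.19 CPM of S100a8 (4.02 to 6.61) and 7.08 CPM of S100a9 (5.69 to 8.70). S100a8 was thus the higher of the pair in both myeloid classes, and in the lymphoid cells the intervals of the pair overlapped.

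Thus S100a8 made up 90.1% of the UMIs of the pair in classical monocyte-like cells (exact binomial interval 85.3 to 93.8%), 90.7% in inflammatory macrophage-like cells (86.5 to 93.9%) and 86.2% in C1q macrophage-like cells (75.3 to 93.5%). It made up 47.2% in neutrophil-like cells (46.7 to 47.8%) and 42.3% in the lymphoid cells (34.4 to 50.5%). In neutrophil-like cells of the single mice it was 46.6%, 62.1%, 47.4% and 46.5%, where the 62.1% of unimmunized mouse 2 rests on 2 cells. In classical monocyte-like cells it was 93.2% in immunized mouse 1 (132 UMIs of the pair) and 85.5% in immunized mouse 2 (76 UMIs), and unimmunized mouse 1 had 4 UMIs and unimmunized mouse 2 none. The value of C1q macrophage-like cells is mainly that of immunized mouse 2, which gave 52 of 56 S100a8 and 6 of 9 S100a9 UMIs. Each other mouse had at most 2 UMIs of S100a8 and 1 of S100a9 in that class. The 2 captures gave 87.4% and 92.0% for classical monocyte-like cells and 46.8% and 48.0% for neutrophil-like cells.

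**Figure D3:**
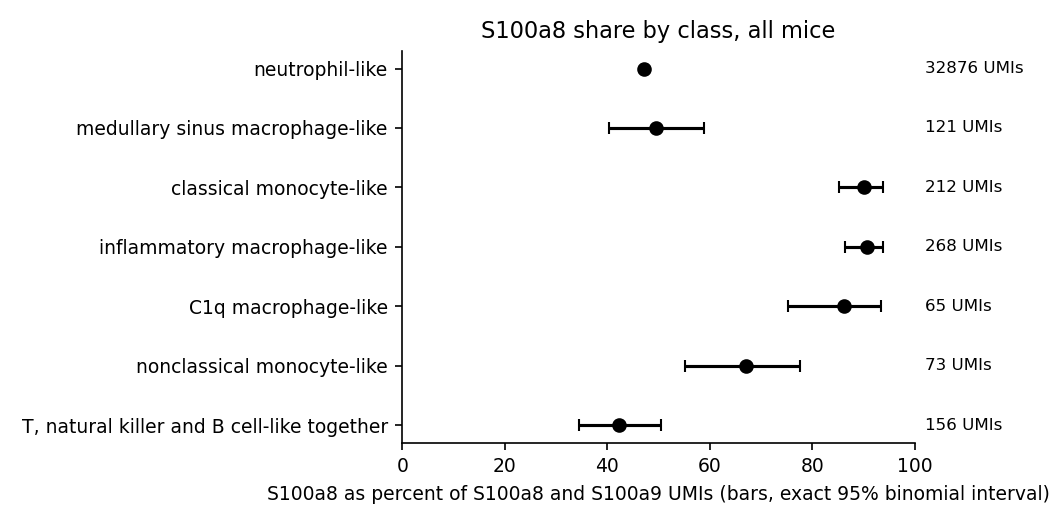
Points give S100a8 as a percent of the S100a8 and S100a9 UMIs summed over the mice in each class, and bars give the exact 95% binomial interval, which covers counting error alone, with the UMIs of the pair at the right. Classical monocyte-like and inflammatory macrophage-like cells lie at 90.1% and 90.7%, and neutrophil-like cells at 47.2%.

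Depth set the share of cells with a UMI, so shares were compared after thinning to 1000 UMIs per cell. S100a8 was then in 2.15% of classical monocyte-like cells (12.1% unthinned, median 11448 UMIs) and 3.57% of inflammatory macrophage-like cells (21.2%, median 14456.5 UMIs), against 0.693% of the lymphoid cells (2.83%, median 6017 UMIs). S100a9 was in 0.307% and 0.179% of the former classes and 0.800% of the lymphoid cells, so its share was not above that of cells that should lack it. Nonclassical monocyte-like and C1q macrophage-like cells had 9.18 and 10.2 CPM of S100a8, above the lymphoid cells, but thinned shares of 0.179% and 0.254%, below them, so no order is read from either. Inflammatory macrophage-like cells came almost wholly from 1 mouse: immunized mouse 2 gave 511 of the 560 cells and 240 of the 243 S100a8 UMIs.

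Lcn2 was the other gene of the set found in these classes. It stood at 6.63 CPM (4.95 to 8.69; 52 UMIs) in classical monocyte-like cells and 3.64 CPM (2.47 to 5.16; 31 UMIs) in inflammatory macrophage-like cells, against 0.393 CPM (0.128 to 0.918; 5 UMIs) in the lymphoid cells. Ngp, Retnlg and Ltf had 1, 3 and 3 UMIs in the 2 classes together, and Camp 13, of which 12 were in inflammatory macrophage-like cells.

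The make-up of the set differed in the same way. Of the 44820 UMIs of the 7 genes in gated cells, S100a9 made up 45.9%, S100a8 40.8%, Retnlg 3.32%, Lcn2 3.30%, Ngp 3.01%, Camp 2.95% and Ltf 0.781%. In the lymphoid cells, with 181 UMIs, S100a9 made up 49.7% (42.2 to 57.2%) and S100a8 36.5% (29.5 to 43.9%). Camp made up 4.97%, Retnlg 3.31%, Lcn2 2.76%, Ngp 1.66% and Ltf 1.10% there. For each of the 7 genes the interval in the lymphoid cells contained the gated value. One natural killer cell-like cell with a Ly-6G count of 98 was among them. Without it, S100a8 made up 33.5% (26.3 to 41.4%) of 161 UMIs, and each of the 7 intervals still contained the gated value. In classical monocyte-like and inflammatory macrophage-like cells, with 583 UMIs, S100a8 made up 74.4% (70.7 to 77.9%), Lcn2 14.2% (11.5 to 17.3%) and S100a9 7.89% (5.83 to 10.4%), and none of these 3 intervals contained the gated value. RNA released from other cells can give UMIs in any droplet, and its part in these values was not tested.

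Single cells set the value of some classes. Medullary sinus macrophage-like cells had 130.6 CPM of S100a8, of which 56 of 60 UMIs were in 1 cell with a Ly-6G count of 126, and 8.74 CPM without it. In natural killer cell-like cells 12 of 22 S100a8 UMIs were in 1 cell with a Ly-6G count of 98. Of the 12 cells outside the gate with most UMIs of the set, 8 had a Ly-6G count of at least 54, and 1 cell had 21 UMIs of Retnlg and none of the other 6 genes.

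**Figure D4:**
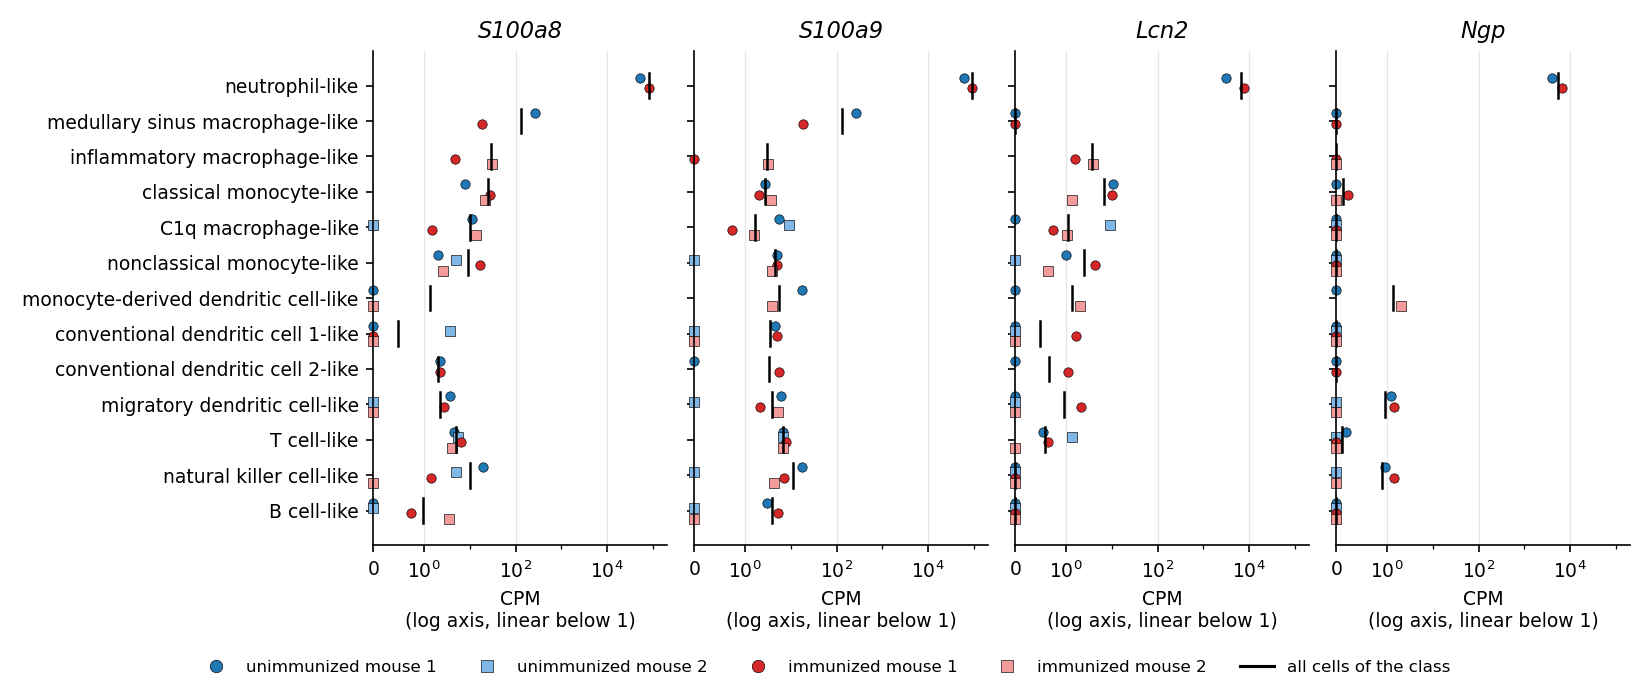
Each panel gives 1 of 4 genes, S100a8, S100a9, Lcn2 and Ngp, with its CPM on the x axis (log axis, linear below 1), a point for each mouse with at least 10 cells of a class and a black line for all cells of the class. Neutrophil-like cells lie furthest right in each panel, with lines at 80070, 89500, 6778 and 5545 CPM.

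Immunization was asked about first over all kept cells of a mouse. In such sums fewer cells of a type and less RNA per cell cannot be told apart. S100a8 stood at 200.5 and 25.2 CPM in unimmunized mice 1 and 2 and at 287.9 and 73.5 CPM in immunized mice 1 and 2. S100a9 stood at 227 and 18.3 CPM against 312 and 74.6. In both genes the first mouse of each condition was the higher, and the conditions overlapped. Lcn2 stood at 13.5 and 2.62 CPM against 29.4 and 4.18, and Retnlg at 11.4 and 1.05 against 24.2 and 6.41. Ngp stood at 22.3 and 0 CPM against 23.4 and 0.549, Camp at 29.1 and 0.524 against 20.1 and 0.468, and Ltf at 6.60 and 0 against 6.02 and 0.258. The 2 conditions overlapped in each of these 5 genes too. For S100a8, S100a9, Lcn2, Retnlg and Ngp the order of the 4 mice was that of their number of gated cells (24 in immunized mouse 1, 20 in unimmunized mouse 1, 9 in immunized mouse 2 and 2 in unimmunized mouse 2). It was not that of their share of gated cells, since these mice had 4052, 2828, 4722 and 537 kept cells. By that share unimmunized mouse 1 came first and immunized mouse 2 last. Camp followed the order by share, and Ltf followed neither order.

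**Figure D5:**
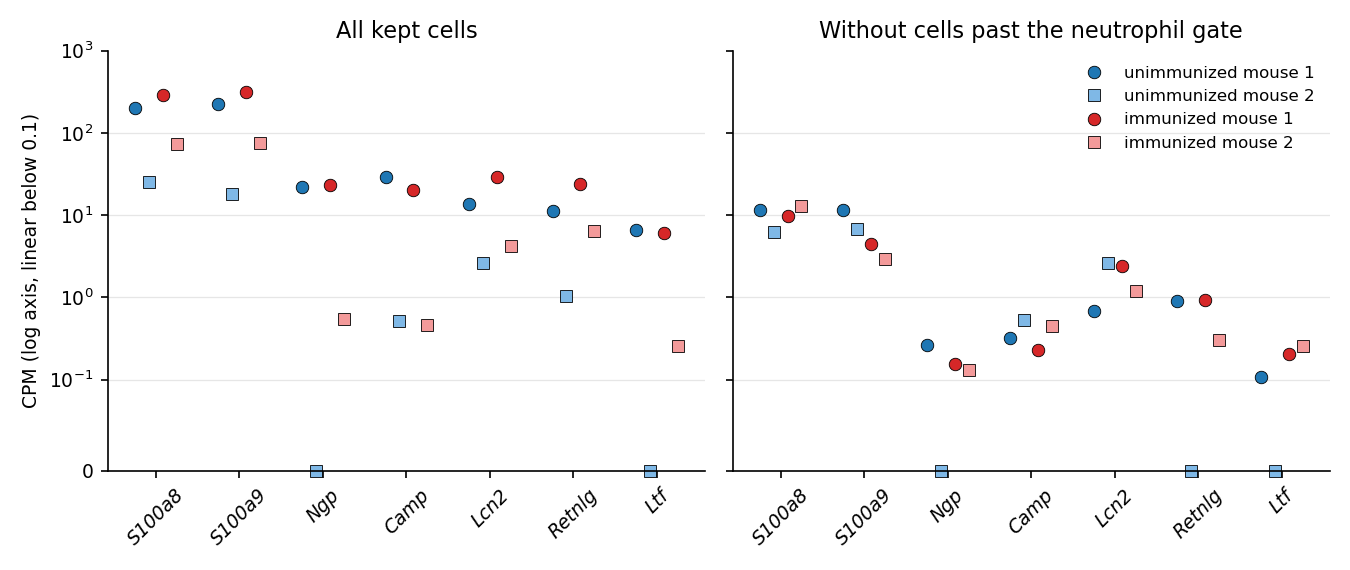
Points give the CPM of each gene in each of the 4 mice (log axis, linear below 0.1), in all kept cells on one side and in cells outside the neutrophil gate on the other. In all kept cells unimmunized mouse 1 and immunized mouse 1 are the 2 highest in each gene, and outside the gate S100a8 lies between 6.29 and 12.9 CPM in the 4 mice.

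None of the 7 genes passed the test for immunization. With edgeR's quasi-likelihood test on the 4 summed libraries, 0 of 7 had an adjusted p (Benjamini-Hochberg) under 0.05, 0 of 7 an unadjusted p under 0.05, and 0 of 7 an adjusted p under 0.05 in DESeq2. Over all 13596 genes tested 0.0% passed, with 3894 at an unadjusted p under 0.05 and 1557 past the threshold in DESeq2. The log2 fold changes (immunized over unimmunized) were 1.35 (SE 0.967, adjusted p 0.398) for Retnlg, 1.15 (SE 1.06, 0.508) for Lcn2, 0.92 (SE 1.04, 0.590) for S100a8 and 0.89 (SE 1.17, 0.643) for S100a9. Those of Ngp, Ltf and Camp were 0.18, -0.06 and -0.42, with SEs of 1.83, 1.64 and 1.78. These SEs, 0.967 to 1.83 over the 7 genes, limit what 2 mice in each condition could show.

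A single mouse decided some of these calls, in fits where the lone mouse of a condition is assumed to vary like the other condition's pair. Without immunized mouse 1, Camp (log2 fold change -4.90), Ngp (-4.30) and Ltf (-3.69) passed as lower in edgeR. These 3 values rest largely on 1 cell of unimmunized mouse 1. Its top cell for each gene held 518 of 551 Camp, 275 of 422 Ngp and 90 of 125 Ltf UMIs. Unimmunized mouse 2 had 0.524, 0 and 0 CPM of Camp, Ngp and Ltf, against 0.468, 0.549 and 0.258 in immunized mouse 2. Without immunized mouse 2, Lcn2 (log2 fold change 1.84) and Retnlg (1.86) passed as higher. The number of all genes past the threshold went from 0 to 4172 without immunized mouse 1 and to 1304 without immunized mouse 2. Capture 2 alone gave larger values for the 4 genes it could test, 2.04 for S100a8 (adjusted p 0.132), 2.07 for S100a9 (0.140), 2.86 for Retnlg (0.167) and 3.45 for Lcn2 (0.134), and capture 1 alone gave 0.50, 0.50, 0.60 and 0.69.

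The values outside the gate were much closer. S100a8 stood there at 11.5 and 6.29 CPM in unimmunized mice and 9.81 and 12.9 CPM in immunized mice, which overlap. S100a9 stood at 11.4 and 6.82 against 4.51 and 2.90, where both immunized mice were lower than both unimmunized mice. In unimmunized mouse 2, 1 cell with a Ly-6G count of 111 held 16 of the 26 S100a9 UMIs outside the gate. In unimmunized mouse 1, 1 cell with a count of 126 held 57 of 215, and in immunized mouse 1, 1 cell with a count of 79 held 15 of 175. The order of the mice thus rests in part on single cells. With the 55 cells left out, a choice made after the data were seen, edgeR gave S100a8 a log2 fold change of 0.56 (SE 0.314, adjusted p 0.293) and S100a9 one of -1.09 (SE 0.340, adjusted p 0.132, unadjusted 0.0257), and 0.0% of the 13577 genes passed. S100a9 thus did not pass the correction. Ltf lay the other way outside the gate, at 0.106 and 0 CPM against 0.206 and 0.259, on 26 UMIs. How many of all genes lacked overlap or had such an unadjusted p is not given here, so nothing is read from this order. T, natural killer and B cell-like cells were 1070 of 2828 and 163 of 537 cells in unimmunized mice. In immunized mice they were 478 of 4052 and 164 of 4722 cells, and their part in the S100a9 values was not tested.

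The share of cells with any UMI of the 7 genes was 7.85% and 5.03% in unimmunized mice and 10.6% and 15.4% in immunized mice. Thinned to 1000 UMIs per cell it was 2.06% and 1.49% against 2.15% and 1.91% (mean ± SD 1.77% ± 0.402 and 2.03% ± 0.17, n = 2 each). The difference was 0.253 percentage points, with p = 0.667 in the exact two-sided permutation test over mice, where 2 against 2 mice cannot go below 0.333. Without unimmunized mouse 2 the difference was -0.0315 points. The limit of 1000 UMIs left out 11 cells. Thinned to 3000 UMIs, the share was 4.04% and 2.24% against 4.44% and 5.21%, both immunized mice above both unimmunized mice, with a difference of 1.68 points and p = 0.333 in the same exact permutation test. That limit left out 551 and 91 cells of unimmunized mice and 288 and 119 of immunized mice, among them 20 of the 40 neutrophil-like cells.

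Within neutrophil-like cells, S100a8 stood at 52230 CPM (13 cells) and 21980 CPM (2 cells) in unimmunized mice 1 and 2 and at 80390 CPM (22 cells) and 136500 CPM (3 cells) in immunized mice 1 and 2. S100a9 stood at 59910 and 13430 CPM against 89060 and 157000. These are sums over cells. The medians over single cells were 22530 and 26240 against 30250 and 131700 CPM for S100a8 and 23960 and 18440 against 33620 and 158900 CPM for S100a9. In the first mouse of each condition the medians were lower than the sums for both genes. They were higher for both genes in unimmunized mouse 2 and for S100a9 in immunized mouse 2. For both genes and on both measures the immunized mice were the higher. Lcn2 stood at 3158 and 0 CPM against 7826 and 7305, and Retnlg at 4890 and 1221 against 6763 and 17280, again without overlap. Ngp (3968 and 0 against 6741 and 1283 CPM), Camp (754.5 and 0 against 5752 and 0) and Ltf (922.2 and 0 against 1687 and 0) overlapped. How many of all genes lacked overlap in these sums is not given here, so nothing about the set is read from this.

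The design asked for 10 cells per mouse and class, which 2 of the 4 mice had, so immunization was tested in neutrophil-like cells with a limit of 2 cells, chosen after the data were seen. In that fit 0 of the 7 genes passed in edgeR, where 0.0% of the 9517 genes did, and 6 of 7 had an unadjusted p under 0.05, as had 618 of the 9517. Retnlg (log2 fold change 2.17, SE 0.417, adjusted p 0.0513) and Lcn2 (2.37, SE 0.479, adjusted p 0.0513) lay just short of the threshold. S100a8 (2.17, SE 0.594, adjusted p 0.391) and S100a9 (2.22, SE 0.571, 0.311) had values of a like size, and Ngp and Ltf had 1.45 and 1.42. Camp had 3.33 (SE 0.763, adjusted p 0.138), a value that rests largely on 1 cell. That cell held 635 of the 774 Camp UMIs in neutrophil-like cells of immunized mouse 1. Those of unimmunized mouse 2 and immunized mouse 2 had 0. The median over all genes in this contrast was 0.46. The spread behind these SEs was shared with all other classes, and 1 mouse of each condition rests on 2 or 3 cells.

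In 7 other classes the 7 genes were tested in 1 fit, which they entered because neutrophil-like libraries were part of it. Most of the 49 tests of a gene in a class had almost nothing to compare, with 0 UMIs over the libraries of the class in 16 and fewer than 10 in 40, so little is read from their count. Of the 49, 0 passed in edgeR at an adjusted p under 0.05 and 0 in DESeq2, and 1 had an unadjusted p under 0.05 in edgeR. Of all 10763 genes, 0.0279% passed in B cell-like cells, 0.0557% in C1q macrophage-like cells, 0.195% in migratory dendritic cell-like cells, 0.483% in T cell-like cells and 0.0% in each of conventional dendritic cell 1-like, natural killer cell-like and nonclassical monocyte-like cells. The lowest p was that of S100a8 in natural killer cell-like cells (log2 fold change -3.71, SE 1.52, adjusted p 0.974), where 12 of the 20 UMIs of unimmunized mouse 1 were in the cell with a Ly-6G count of 98. In nonclassical monocyte-like cells S100a8 had a log2 fold change of 2.13 (SE 1.12, adjusted p 0.585), with 1.99 and 5.02 CPM in unimmunized and 16.2 and 2.59 CPM in immunized mice, and 42 of its 49 UMIs were from immunized mouse 1; without immunized mouse 2 it passed in edgeR (2.71, adjusted p 0.0198), on a fit in which the lone immunized mouse is assumed to vary like the other libraries. In T cell-like cells S100a9 had a log2 fold change of 0.29 (SE 0.533, adjusted p 0.968). Classical monocyte-like cells, of which unimmunized mouse 2 had 4, entered with the limit of 2 cells, together with conventional dendritic cell 2-like and medullary sinus macrophage-like cells. Of the 21 tests of the 7 genes in these 3 classes 0 passed, where 0.147%, 0.021% and 0.0% of all genes did, and 2 had an unadjusted p under 0.05. Those were S100a8 (log2 fold change -3.46, adjusted p 0.719) and S100a9 (-3.48, adjusted p 0.697) in medullary sinus macrophage-like cells. In that class 1 cell held 56 of 60 S100a8 UMIs. How many of all genes had such an unadjusted p in these 3 classes or in the 7 above is not given here, so the counts at that p are not read. S100a8 had a log2 fold change of 1.92 (SE 1.35, adjusted p 0.844) in classical monocyte-like cells. Inflammatory macrophage-like cells were not tested, with 2 and 0 cells in the unimmunized mice.

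The other neutrophil genes did not pass over all kept cells either. Of the 29 that could be tested, 0 had an adjusted p under 0.05 in edgeR, with a median log2 fold change of 0.41 against -0.02 over all genes tested. Within the 7 classes Lyz2 passed in B cell-like cells, where it was higher in immunized mice, and no other gene of the list passed. Lyz2 had a UMI in 99.5% of all cells outside the gate. The part of released RNA or of doublets within a mouse in this call was not tested. Of the 14 other S100 genes, 9 could be tested over all kept cells and 6 within classes, and 0 passed in edgeR.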

How the data were processed

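Reads of both captures had been aligned to an mm10 reference, counted per gene and barcode with Cell Ranger 4.0.0 and joined with its aggr step, per the submitters' notes and the methods. The sources used here do not say whether aggr equalized the captures. The authors deposited UMI counts per gene, and tag counts per hashtag and antibody made with CITE-seq-Count, and these counts were used as deposited. The 7 genes and all lists were chosen with earlier results of these data known.

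Barcodes were kept with at most 25% mitochondrial UMIs, a sequence found in 1 capture, at least 10 hashtag counts and at least 80% of them from 1 hashtag. Hashtags 1 and 2 marked unimmunized mice and 3 and 4 immunized mice. Cell types were gated on the number of markers detected, at least 5 for lists of over 7 markers and 4 for shorter ones, and a cell past 1 gate alone took that name with the ending -like. Counts were summed per mouse, and per mouse and class with at least 10 cells, and fitted with edgeR 4.0.16 in R 4.3.3 (quasi-likelihood test, TMM, filterByExpr, Benjamini-Hochberg over all genes tested, threshold 0.05), with all classes in 1 fit. Libraries of 1 mouse were treated as independent in that fit, so its p-values may be too small. Alternatives were DESeq2 1.42.0, hashtags called by HTODemux of Seurat 5.3.0, stricter hashtag and mitochondrial limits, thinned cells, single captures, each mouse left out and, added later, a limit of 2 cells per library. The tests were run on simulated counts first. Named genes were the 7, the 3 of the other neutrophil and other S100 lists with the highest CPM in neutrophil-like cells, and the 10 of highest Pearson correlation of log2(CPM + 5) with the mean of the 7 over libraries, among genes of a mean of at least 5 CPM. Other genes named beside them (gate markers, sort markers and primary granule enzymes) were named as checks. That the 2 mice of a group were separate animals comes from the labels, and p-values measure the spread between those mice.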

Additional observations from a re-analysis of the deposited data

Results flagged for a closer look

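Barcodes that entered no comparison also carried the 7 genes. At least 10000 CPM of the set were found in 41 of the 12139 kept cells (0.338%), in 26 of the 3449 barcodes with no single hashtag (0.754%), in 21 of the 1242 barcodes whose sequence occurred in both captures (1.69%) and in 4 of the 1238 barcodes with no tag data (0.323%), and in 0 of the 594 barcodes over the mitochondrial limit. Of the 621 shared sequences, 10 were at this level in both captures, 1 in 1 capture and 610 in neither. With 2 mice in a group, no group was large enough for a test of outlying samples.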

How the results depend on the processing

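Depth and cell number set the limits: 55 gated cells, 537 kept cells in unimmunized mouse 2 and a higher median of UMIs per cell in immunized mice. No paired analysis was possible because each mouse belongs to 1 condition and the hashtags share no replicate number across conditions.

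The percent of the set's UMIs in neutrophil-like cells (75.5 to 90.9%), the S100a8 shares and the Ly-6G difference kept their direction under each alternative run. On the centred log ratio scale the Ly-6G difference was 2.65 to 3.00, with 2.88 to 2.99 when 1 mouse was left out. On another scale, log2 of the mean antibody count, it was 4.66. The thinned difference in the share of cells ranged from -0.0315 to 0.537 when 1 mouse was left out, and reversed without unimmunized mouse 2. Against 0.253 it was 6.55 in unthinned cells, 1.68 with cells thinned to 3000 UMIs, 0.622 with a hashtag share of at least 95%, 0.465 with a mitochondrial share of at most 10% and 0.366 without neutrophil-like cells. Over all kept cells the number of genes past the threshold, 0 in edgeR, was 2720 with no filter on low counts, 1557 in DESeq2 and 0 to 4172 when 1 mouse was left out. The number of the 7 genes past it, 0, was 0 to 3 when 1 mouse was left out. Summed over the 7 classes, 82 genes passed, against 15 with HTODemux, 77 with a limit of 2 cells per library, 387 with each class fitted alone, 812 with no filter on low counts and 19 to 1325 when 1 mouse was left out, and 0 to 1 of the 49 tests of the set passed when 1 mouse was left out.

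When 1 mouse was left out, the log2 fold changes over all kept cells ranged from -4.90 to 4.47 for Camp, -0.87 to 2.87 for Lcn2, -3.69 to 9.75 for Ltf, -4.30 to 11.68 for Ngp, 0.04 to 4.07 for Retnlg, -0.35 to 3.05 for S100a8 and -0.44 to 3.6 for S100a9. The upper ends for Ltf and Ngp came without unimmunized mouse 1. Unimmunized mouse 2 had 0 UMIs of both genes, so the size of these 2 values is not read. The log2 fold changes for immunization over all kept cells reversed as follows. Camp went from -0.42 to 4.47 without unimmunized mouse 1, 0.42 without immunized mouse 2, 0.21 with a hashtag share of at least 95%, 4.55 with HTODemux and 0.18 without the gated cells. Lcn2 went to -0.87 without immunized mouse 1 and -1.11 without neutrophil-like cells. Ltf went to 0.21 in DESeq2, 9.75 without unimmunized mouse 1 and 0.67 without immunized mouse 2. Ngp went to -0.58 without unimmunized mouse 2, -4.30 without immunized mouse 1, -0.03 in capture 1 alone and -0.29 with thinned cells. Retnlg went to -0.92 with a hashtag share of at least 95% and -0.40 without neutrophil-like cells. S100a8 went to -0.35 without immunized mouse 1 and -1.20 without neutrophil-like cells. S100a9 went to -0.44 without immunized mouse 1, -0.12 with a hashtag share of at least 95%, -1.84 without neutrophil-like cells and -1.09 without the gated cells. Leaving out all gated cells, leaving out the cell with most UMIs of the set and the limit of 2 cells were chosen after seeing the data. Leaving out cells or a mouse changes which of the few high cells enter a sum, and for the other settings the cause was not tested. Some settings gave no value for Ngp, Camp or Ltf, which then failed the filter on low counts, and with a hashtag share of at least 95% the Ly-6G difference could be had in 2 mice.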
